A study of Rattus norvegicus with 20 samples.

Results

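Vocal fold tissue taken 4 weeks after injury was compared with tissue from uninjured rats, as 5 arrays against 5 out of the 20 arrays of the study. The comparison was chosen by the sample labels alone and covered every probe set to which the platform annotation gives a single gene symbol, 15049 of the 24871 probe sets on the array, for 15037 genes. The animals were male Sprague-Dawley rats, and the methods give an age of 14 to 16 weeks for those that underwent injury. Age at tissue collection is not stated for any group, so it may differ between injured rats and controls. The wound was a stripping of the lamina propria, the pliable connective tissue that vibrates during phonation, down to the muscle of the fold. RNA was profiled on 1 array per rat in uninjured controls and at 1, 4 and 8 weeks, with 5 rats in each group. All groups were of 1 strain and 1 sex with no transgene, and nothing in the sources used here describes a sham operation. The labels describe folds from both sides, whereas the methods allow injury on 1 or both sides, so the sources do not settle whether every dissected fold had been injured. Rats are named below by group and replicate number. Values are log2 signals as deposited, so a difference of 1 is a 2-fold change.

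A wounded vocal fold passes through inflammation, deposition of new matrix and slow remodelling into a stiffer scar. Macrophages clear debris and, with dendritic cells, display peptides to T cells on class II molecules of the major histocompatibility complex (MHC), while every nucleated cell displays peptides on class I molecules after the proteasome has cut them. Interferon-gamma is known to induce both systems and to exchange the catalytic subunits of the proteasome for those of the immunoproteasome.

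Of the 15049 probe sets, 1952 (13%) differed between 4 weeks and control in limma's moderated test at an adjusted p below 0.05, of which 1131 (7.52%) were higher and 821 (5.46%) lower. Each gene group count below is to be read beside these shares. The median difference over all probe sets was 0.04, and the 5 injured rats lay wholly above the 5 controls for 909 probe sets (6.04%) and wholly below for 318 (2.11%). The balance of directions was not stable, since quantile normalization gave 1327 higher and 1228 lower, median centring gave 1104 and 1348, and leaving out control replicate 3 gave 902 and 1697. Control replicate 3 had the lowest median signal, 4.85 against 5.19 to 5.28 in the other controls. The manufacturer's hybridization controls are added in fixed amounts at the hybridization step. They averaged 10.09 ± 0.13 (SD, n = 5) at 4 weeks and 9.25 ± 0.30 (SD, n = 5) in controls. Background probe sets averaged 3.30 ± 0.07 (SD, n = 5) at 4 weeks and 2.70 ± 0.12 (SD, n = 5) in controls. Neither measure overlapped between the groups (exact two-sided permutation test, p = 0.00794 for each, the smallest that 5 against 5 allows). A separate set, the labelling controls, averaged 5.97 ± 0.37 (SD, n = 5) at 4 weeks and 5.46 ± 0.29 (SD, n = 5) in controls, with overlap. With the hybridization signal as a covariate 10 probe sets passed, and with the background signal 1 did. Both signals differed with the groups, so what they track cannot be told apart from the injury.

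Calls also followed the length of the gene. When genes were split by genomic span into 5 equal classes, 11.6% of the shortest class were higher at 4 weeks and 1.73% lower, whereas in the longest class 2.63% were higher and 11.8% lower. The median difference ran from 0.12 to -0.13 between these classes, and its part in the gene group results below was not tested. The median span is given beside several gene groups, against 17.8 kb over all genes.

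The dissected tissue carried the transcripts of a whole vocal fold. Keratins of stratified epithelium (Krt13, mean 9.48 in controls), fast skeletal muscle myosin (Myh1, 10.07) and type I collagen (Col1a1, 8.54) were all among the brightest probe sets of control arrays. Neither Krt13 (+0.70, adjusted p = 0.0711) nor Myh1 (-0.32, adjusted p = 0.708) passed the limma test. In such bulk samples, fewer cells of a type and less RNA per cell cannot be told apart.

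Class II antigen presentation was the gene group with the broadest rise among the immune groups of more than 10 members. Of its 13 measured members 7 rose and none fell, with a median difference of 0.85, and 4 had groups that did not overlap. The median span of these genes was 6.2 kb, with 10 of the 13 in the 2 shortest classes. RT1-Ba, the alpha chain of a classical class II molecule, read 5.51, 5.44, 5.67, 5.81 and 6.32 in controls and 6.88, 8.78, 6.75, 6.83 and 7.25 at 4 weeks. All injured rats lay above all controls, with injured replicate 2 far above the rest, and the difference was 1.55 ± 0.35 (SE), or 2.93-fold (limma, adjusted p = 0.00659). Its partner beta chain RT1-Bb read 5.27, 5.18, 5.57, 5.16 and 5.55 in controls and 6.19, 7.36, 6.42, 6.47 and 6.17 at 4 weeks. The groups were again apart, by 1.17 ± 0.21 (SE, adjusted p = 0.00129), with the same rat highest. RT1-Da, alpha chain of the second classical class II molecule and the brightest of these chains, read 9.24, 8.87, 8.67, 9.18 and 9.63 in controls and 10.25, 10.81, 9.73, 9.66 and 9.73 at 4 weeks. Here the lowest injured rat stood only just above the highest control (difference 0.91, adjusted p = 0.038). RT1-Da did not pass in 12 of 25 alternatives. Cd74, the invariant chain that chaperones class II molecules (+0.85), and Ifi30, a thiol reductase that unfolds antigen in lysosomes (+0.94), also rose. Ifi30 did not pass in 11 of 25 alternatives. Ciita, the class II transactivator, did not pass (+0.78, adjusted p = 0.0661), nor did RT1-Db1 (+1.04, adjusted p = 0.092). The class II and class I genes of the rat are close relatives, so probe sets could share signal between them.

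Class II genes are known to share an upstream module of an X box and a Y box, bound by a complex that Ciita joins. The 250 bases before the start were searched on both strands for AGCAAC, a core of the X box, and ATTGG, the core of the Y box, and for AGCAAC followed on the same strand by ATTGG after 10 to 40 bases. RefSeq sequences (GRCr8) were at hand for 11 of the 13 list genes. The pair was found in 5 of the 11 (45.5%), with 25 to 28 bases between the motifs, and in 127 of 33469 promoters overall (0.379%), while ATTGG alone was in 81.8% and 34% and AGCAAC alone in 54.5% and 12.1%. Of these exact strings RT1-Ba and RT1-Bb, the chains with the largest differences, held only ATTGG. Variants of either box were not searched for, so the search does not show whether those 2 chains lack an X box. The 150 bases before each start are printed for the 5 genes with the pair and for those 2 chains, with the motifs that lie on the gene's own strand in capitals. ATTGG on the opposite strand, 55 bases before the start of RT1-Db1 and 57 before that of RT1-DOb, is left in lower case. They lie at chr20:4515265-4515414 (+ strand), chr20:4560163-4560312 (- strand), chr20:4541596-4541745 (- strand), chr20:4758424-4758573 (- strand), chr20:4627524-4627673 (- strand), chr20:4576907-4577056 (+ strand) and chr20:4604119-4604268 (- strand).
RT1-Da: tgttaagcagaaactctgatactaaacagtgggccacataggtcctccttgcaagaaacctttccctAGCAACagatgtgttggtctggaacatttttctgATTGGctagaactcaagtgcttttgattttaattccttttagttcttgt
RT1-Db1: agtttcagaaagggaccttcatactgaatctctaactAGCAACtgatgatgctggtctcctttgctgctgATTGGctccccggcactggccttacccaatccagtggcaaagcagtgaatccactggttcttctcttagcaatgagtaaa
RT1-Db2: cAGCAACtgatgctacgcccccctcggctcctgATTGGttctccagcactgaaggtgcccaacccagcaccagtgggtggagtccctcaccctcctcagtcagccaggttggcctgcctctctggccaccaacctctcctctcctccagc
RT1-DOa: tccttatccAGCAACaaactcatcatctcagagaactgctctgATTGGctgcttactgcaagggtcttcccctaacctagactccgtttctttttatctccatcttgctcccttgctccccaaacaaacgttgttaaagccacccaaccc
RT1-DOb: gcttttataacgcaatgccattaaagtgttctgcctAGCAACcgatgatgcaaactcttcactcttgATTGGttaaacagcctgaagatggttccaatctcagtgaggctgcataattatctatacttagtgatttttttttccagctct
RT1-Ba: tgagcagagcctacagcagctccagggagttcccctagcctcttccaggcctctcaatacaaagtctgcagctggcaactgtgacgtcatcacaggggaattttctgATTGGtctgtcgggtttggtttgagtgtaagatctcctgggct
RT1-Bb: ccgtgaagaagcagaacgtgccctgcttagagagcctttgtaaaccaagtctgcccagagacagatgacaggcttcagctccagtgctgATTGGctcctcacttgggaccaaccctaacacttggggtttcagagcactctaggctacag
The pair was present both in genes that rose, such as RT1-Db2 (+0.71, adjusted p = 0.0167) and RT1-DOb (+0.77, adjusted p = 0.0194), and in RT1-DOa, a chain of the class II modulator DO, which did not pass (+0.27, adjusted p = 0.251).

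The immunoproteasome moved with class II. Psmb9, 1 of its catalytic subunits, read 5.40, 5.40, 5.42, 5.26 and 6.32 in controls and 6.58, 8.61, 6.72, 6.48 and 6.64 at 4 weeks. Control replicate 5 was raised above the other controls but stayed below every injured rat, and the difference was 1.45 ± 0.35 (SE), or 2.73-fold (adjusted p = 0.00872). Psmb10, the second subunit of this kind, read 5.71, 5.89, 5.62, 5.96 and 6.21 in controls and 6.78, 8.13, 6.64, 6.33 and 6.57 at 4 weeks, without overlap (+1.01, adjusted p = 0.0113). Psmb8, the remaining catalytic subunit (+1.06), and Pomp, the chaperone of its assembly (+0.68), brought the group to 4 of 6 members higher and none lower, with a median of 0.84. The activator gene Psme1 went the other way without passing (-0.35, adjusted p = 0.172), and passed as lower in 4 of 25 alternatives. The group's median span was 3.79 kb. Of 30 constitutive proteasome genes 7 rose and none fell, with a median of 0.20, among them the subunit Psmb4 (+0.90).

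In class I presentation 3 of 19 members rose and none fell, with a median of 0.43 and a median span of 4.28 kb. RT1-CE10, a class I heavy chain, read 5.99, 6.19, 6.19, 6.39 and 7.07 in controls and 7.35, 8.17, 7.32, 7.24 and 7.40 at 4 weeks. The groups were apart although control replicate 5 approached the injured rats (+1.13, adjusted p = 0.00229). The heavy chain RT1-A1 rose by 1.12 and the peptide transporter Tap1 by 0.93, the latter with overlap between control replicate 5 (6.74) and injured replicates 1 (6.52) and 4 (6.28). Among 18 genes of the interferon-gamma response 4 rose, with a median of 0.66 and a median span of 7.95 kb. Without injured replicate 2 this was 2 genes and a median of 0.22, and without control replicate 3 as well 1 gene and 0.09. With the hybridization or background covariate no member passed and the median was -0.01 and -0.10. The 4 were the transcription factors Irf1 (+0.95) and Irf8 (+0.96), the feedback inhibitor Socs1 (+0.72) and Casp1 (+1.09), the protease that matures interleukin-1 beta. Irf1 did not pass in 11 of 25 alternatives. Casp1 ranged from 4.99 to 5.96 in controls and was at 6.16 or more in every injured rat (adjusted p = 0.00301). Of 34 genes stimulated by type I interferon only Bst2, the tether that holds budding virus at the membrane, passed (+1.17), and the median of 0.13 lay near that of all probe sets.

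**Figure D1:**
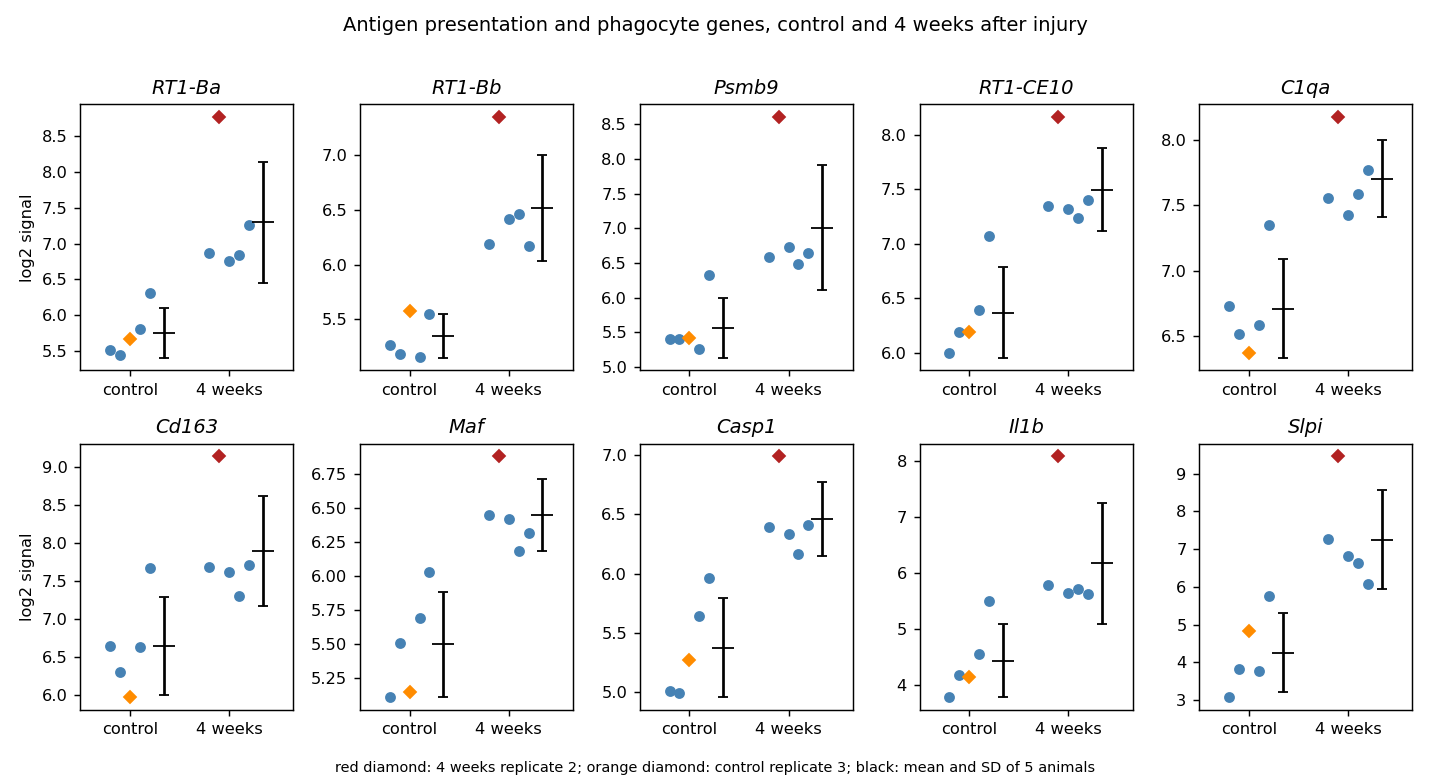
Log2 signal of 10 genes in each control and each 4-week rat (points), with the mean and SD of 5 rats beside them. Injured replicate 2 (red diamond) was the highest rat in every panel, at 8.78 for RT1-Ba and 9.15 for Cd163. Cd163 is the panel in which the groups overlap.

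Macrophage markers rose in 7 of 24 genes (29.2%, against 7.52% of all probe sets) and none fell, with a median of 0.58. Cd163, the scavenger receptor for haemoglobin bound to haptoglobin, read 6.65, 6.30, 5.97, 6.64 and 7.68 in controls and 7.68, 9.15, 7.62, 7.30 and 7.71 at 4 weeks. Control replicate 5 lay among the injured rats, so the groups overlapped although the difference passed, at 1.25 ± 0.30 (SE), or 2.37-fold (adjusted p = 0.00836). Maf, a transcription factor of resident macrophages, read 5.11, 5.51, 5.15, 5.69 and 6.03 in controls and 6.45, 6.88, 6.42, 6.18 and 6.32 at 4 weeks, without overlap (+0.95, adjusted p = 0.00105). The phagocytic receptor Mertk (+0.54), the fractalkine receptor Cx3cr1 (+0.86), the Fc receptor Fcgr1a (+0.92), the lectin Clec10a (+0.97) and Adgre1, which encodes the F4/80 antigen (+1.03), completed the group. Adgre1 and Mertk did not pass in 13 and 12 of 25 alternatives. Among 28 phagocyte signalling genes 5 rose (17.9%), led by the actin regulator Coro1a (+1.30) and the NADPH oxidase subunit Ncf1 (+1.03). Arhgdib, whose product is abundant in leukocytes, went the other way, with 8.42, 8.71, 7.88, 9.01 and 8.76 in controls and 7.30, 7.77, 7.05, 7.43 and 7.60 at 4 weeks (-1.12, adjusted p = 0.000695).

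Complement genes rose in 6 of 18 members (33.3%, against 7.52% of all probe sets) and fell in 2 (11.1%, against 5.46%). The median was 0.27. C1qa, a chain of the C1q molecule that starts the classical pathway, read 6.73, 6.51, 6.37, 6.58 and 7.35 in controls and 7.55, 8.18, 7.42, 7.59 and 7.77 at 4 weeks. The closest values were control replicate 5 and injured replicate 3, the groups did not overlap, and the difference was 0.99 ± 0.18 (SE), or 1.99-fold (adjusted p = 0.0014). C4b, a component cleaved next in that pathway, read 6.81, 6.66, 6.89, 7.52 and 6.91 in controls and 8.44, 8.19, 8.32, 7.77 and 8.00 at 4 weeks (+1.19, adjusted p = 0.00025). For C4b injured replicate 2 did not stand out, and control replicate 4 was the high control. Cfd, factor D of the alternative pathway (+1.17), C1qc (+1.07), C6 of the membrane attack complex (+1.04) and properdin, Cfp (+0.67), rose as well. The members that fell, Cd55 (-1.18) and Clu (-0.83), are both known to restrain complement.

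Inflammatory mediators included the steepest rise of a gene without overlap. Slpi, a secreted inhibitor of neutrophil elastase, read 3.07, 3.82, 4.84, 3.78 and 5.77 in controls and 7.26, 9.47, 6.80, 6.63 and 6.08 at 4 weeks. The spread was wide in both groups, and the difference was 2.99 ± 0.64 (SE), or 7.96-fold (adjusted p = 0.0044). Il1b, the cytokine interleukin-1 beta, read 3.79, 4.18, 4.15, 4.55 and 5.50 in controls and 5.79, 8.10, 5.64, 5.71 and 5.63 at 4 weeks (+1.74, adjusted p = 0.0136). Control replicate 5 reached to just below 4 of the injured rats, and injured replicate 2 was far above them. Its decoy receptor Il1r2 rose by 1.45 without overlap. Of 26 chemokines, with a median span of 3.83 kb, 4 rose, namely Ccl2 (+1.35), Ccl7 (+1.48), Pf4 (+1.52) and Ccl19 (+1.98), and the membrane-bound chemokine Cx3cl1 fell (-1.11). Ccl19, which draws dendritic and T cells to lymphoid tissue, read 4.91, 3.96, 3.91, 5.24 and 6.48 in controls and 6.94, 8.65, 6.43, 6.63 and 5.75 at 4 weeks, with control replicate 5 above injured replicates 3 and 5.

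Some lymphocyte genes rose. Among 36 T and natural killer cell genes 5 rose and 1 fell, with a median of 0.60. The rises were in the T cell receptor adaptor Lat (+0.86), the kinase Lck (+0.97), perforin, Prf1 (+1.00), the killer cell receptor Klrd1 (+1.00) and the chemokine Ccl5 (+1.62), and Cd7 fell (-1.36). Ccl5, Cd7 and Lck did not pass in 15, 13 and 12 of 25 alternatives, and Lat in 5. The defining T cell gene Cd3e did not pass (+1.21, adjusted p = 0.0592), nor did Ptprc, the pan-leukocyte antigen CD45 (+1.19, adjusted p = 0.0723). Of 18 B and plasma cell genes Pax5 (+0.87) and Prdm1 (+0.89) rose at 4 weeks, or 11.1% against 7.52% of all probe sets.

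**Figure D2:**
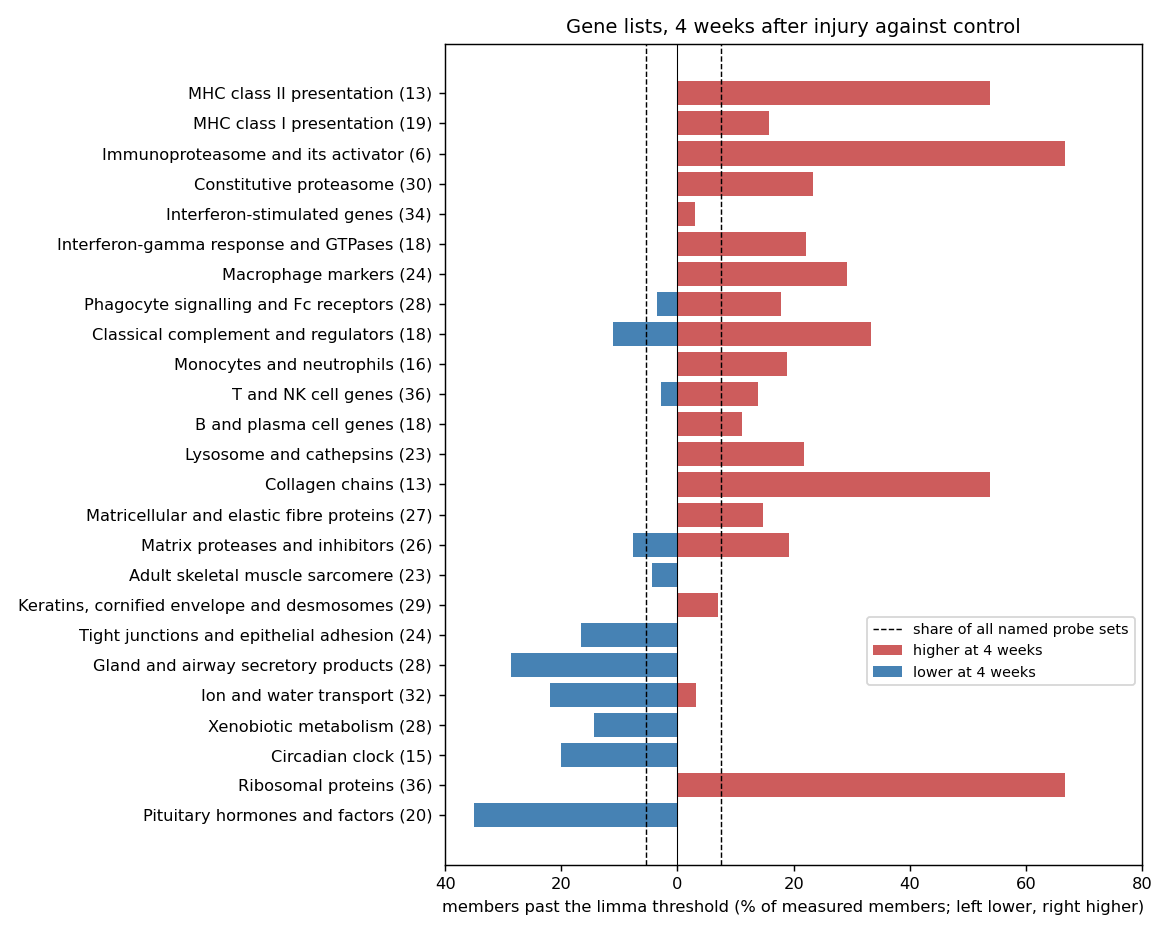
Share of measured members of 25 gene lists that were higher (right) or lower (left) at 4 weeks by the limma test, with list sizes in parentheses. Dashed lines mark the shares over all named probe sets, 7.52% higher and 5.46% lower, and the MHC class II, immunoproteasome, collagen and ribosomal protein bars reach farthest to the right.

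The immune groups were uneven among the injured rats. The mean of the 13 class II genes, set relative to the mean of the controls, was 0.85, 1.72, 0.75, 0.44 and 0.56 in injured replicates 1 to 5 and -0.21 to 0.47 in controls. For 16 monocyte and neutrophil genes, with a median span of 5.1 kb, it was 2.03 in injured replicate 2, 0.14 to 0.21 in the other injured rats and -0.32 to 0.52 in controls. S100a8, a neutrophil calprotectin subunit, read 7.87 in injured replicate 2 against 2.62 to 3.34 in the other injured rats and 2.30 to 2.84 in controls. Injured replicate 2 was the highest of the injured rats for 33 of 36 T and natural killer cell genes, 26 of 28 phagocyte genes and 21 of 24 macrophage markers, against 24.3% of all probe sets. Control replicate 5 was the highest control for 29 of the 36, 20 of the 28 and 20 of the 24 genes, against 27.6% of all probe sets.

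Without injured replicate 2 the number of probe sets that passed fell to 1283 (763 higher, 520 lower). Class II then had 4 of 13 higher, the immunoproteasome 2 of 6, macrophage markers 4 of 24, phagocyte genes 0 of 28, T and natural killer cell genes 1 of 36, chemokines 1 of 26 and complement 4 of 18. Without both that rat and control replicate 3 the counts were 3 of 13 for class II, 2 of 6 for the immunoproteasome, 2 of 24 for macrophage markers and 4 of 18 for complement. In that setting 1 member of the immunoproteasome list and 1 macrophage marker were lower. Over all 15049 probe sets 676 were then higher and 1285 lower. Leaving out only injured replicate 2 also gave 1 lower macrophage marker, and leaving out only control replicate 3 gave 1 lower immunoproteasome member. Without control replicate 3 alone, class II and macrophage markers stood at 4 each and phagocyte genes at 3. With the hybridization covariate no member of the class II, immunoproteasome or macrophage lists passed, and the class II median was 0.73 while that of all probe sets was -0.11.

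**Figure D3:**
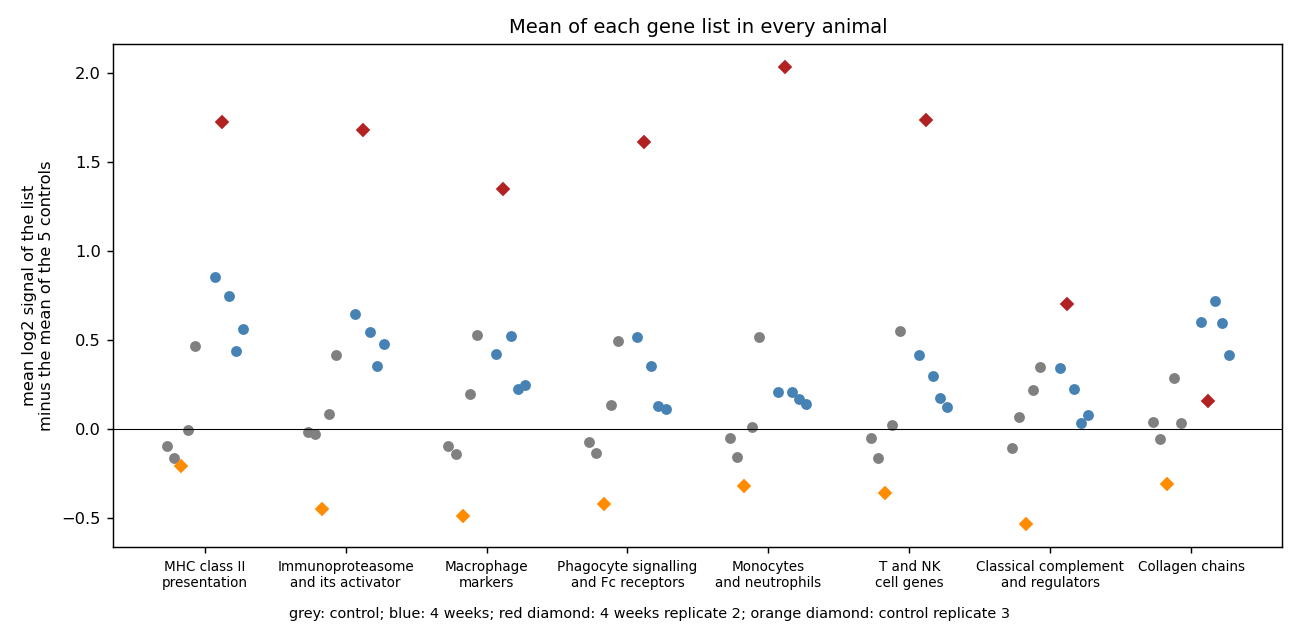
Mean log2 signal of 8 gene lists in each rat, relative to the mean of the 5 controls. Injured replicate 2 (red diamond) stands above the other 4 injured rats in the 7 immune lists, by most in monocytes and neutrophils (2.03), and is the lowest injured rat for collagen chains (0.16).

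Several collagen chains rose. Of 13 collagen chains 7 rose and none fell, with a median of 0.49 and a median span of 106 kb. Col5a1, which governs the assembly of collagen fibrils, read 6.90, 6.81, 6.52, 6.91 and 6.89 in controls and 7.56, 7.42, 7.96, 8.03 and 7.89 at 4 weeks (+0.96, adjusted p = 0.000222). The groups were well apart, with injured replicate 2 the lowest injured rat. Serpinh1, the collagen chaperone HSP47, read 8.72, 8.61, 7.76, 8.52 and 8.65 in controls and 9.88, 9.48, 10.10, 9.50 and 9.38 at 4 weeks (+1.21, adjusted p = 0.000303). Control replicate 3 was low, yet every injured rat was above every control. The fibrillar collagens Col1a1 (+0.78) and Col3a1 (+0.63) rose with overlapping groups. Col3a1 did not pass in 12 of 25 alternatives. Aspn, a small proteoglycan of the collagen fibril surface (+1.23), the elastic fibre protein Eln (+0.80), Aebp1 (+0.80) and Tgfbi (+0.69) also rose, while the proteoglycans Fmod (-1.20) and Prelp (-0.50) fell. In all, 4 of 20 small proteoglycan and hyaluronan genes were higher (20%) and 2 lower (10%), with a median of -0.15. Of 27 matricellular and elastic fibre genes 4 were higher (14.8%) and none lower (median 0.18). Of 18 collagen folding and crosslinking genes 2 were higher (11.1%) and none lower (median 0.26). Over all probe sets 7.52% were higher and 5.46% lower.

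Of 26 matrix proteases and inhibitors 5 rose (19.2%, against 7.52% of all probe sets) and 2 fell (7.69%, against 5.46%). The median was 0.29. The metalloproteinase Mmp3 read 4.79, 5.61, 5.69, 6.84 and 5.95 in controls and 6.89, 9.29, 7.23, 8.27 and 5.99 at 4 weeks (+1.76, adjusted p = 0.017). Injured replicate 5 lay among the controls. Mmp7 (+1.37) and the aggrecanases Adamts4 (+0.83) and Adamts5 (+0.84) rose, whereas the tissue inhibitors Timp3 (-0.91) and Timp4 (-1.11) fell without overlap. Lysosomal genes included the collagen-degrading cathepsin Ctsk (+0.62) among 5 of 23 that rose (21.7%).

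The comparisons of 1, 4 and 8 weeks with control share their 5 control arrays, so their values are set side by side without a test of likeness. At all these times every array lay above every control in hybridization signal (9.94 or more against 9.59 or less). The same held for background signal (3.17 or more against 2.90 or less). What these signals track cannot be told apart from the injury at any of these times. Over all probe sets 11.2% were higher than control at 1 week, 7.52% at 4 weeks and 6.96% at 8 weeks. The collagen list had 11 members higher at 1 week, 7 at 4 weeks and 6 at 8 weeks, and its medians were 1.05, 0.49 and 0.51. The class II list had 4, 7 and 4 members higher, and its medians were 0.45, 0.85 and 0.76. Directly between 4 weeks and 1 week, 19 probe sets (0.126%) passed, all lower at 4 weeks. They include Cthrc1 (-2.66), Thbs2 (-2.36), Postn (-1.83), Eln (-1.55), the growth factor Igf2 (-1.85), the imprinted gene Ndn (-1.07) and the crosslinking enzymes Loxl1 (-0.91) and Loxl2 (-1.12). At 4 weeks Cthrc1 read 5.21, 5.62, 5.85, 5.31 and 4.87, within reach of the controls at 5.15, 4.66, 4.70, 4.75 and 5.20 (adjusted p = 0.348). No immune gene named here passed the threshold between 4 weeks and 1 week, the closest being Slpi at 2.34 (adjusted p = 0.179, 95% interval 1.01 to 3.66). Without adjustment, 1367 probe sets had a limma p below 0.05 between these times. They included 11 of 36 T and natural killer cell, 9 of 28 phagocyte, 8 of 18 interferon-gamma and 2 of 13 class II genes. Between 8 and 4 weeks limma passed 0 probe sets (0%), with 377 at an unadjusted p below 0.05. For RT1-Ba that difference was -0.13 (95% interval -0.86 to 0.60) and for C1qa 0.07 (-0.30 to 0.44).

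**Figure D4:**
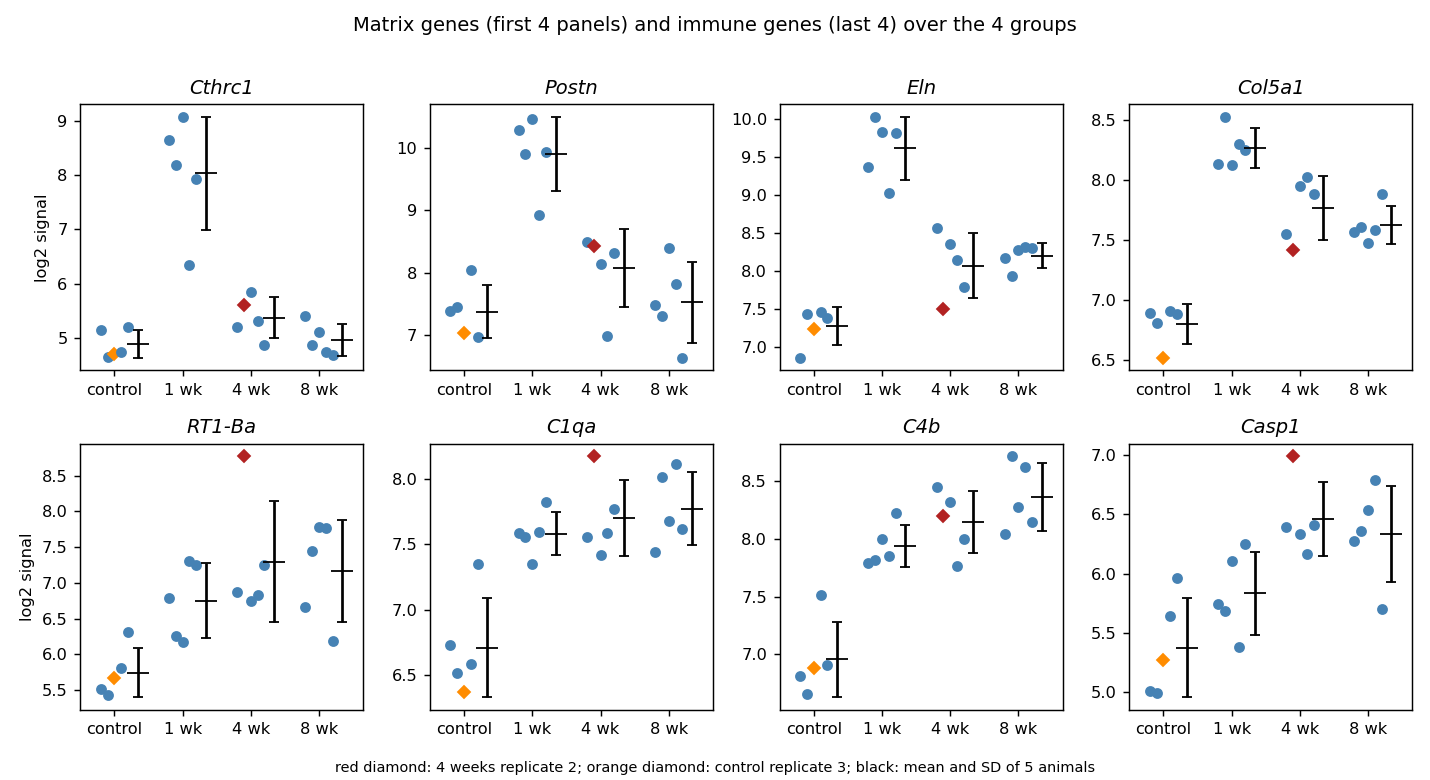
Log2 signal in every rat of the 4 groups (points), with the mean and SD of 5 rats. Cthrc1 fell from 1 week to 4 weeks by 2.66, whereas C1qa at 4 weeks was 0.12 above its 1-week level with overlapping rats.

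Several secretory genes fell. Of 28 gland and airway secretory products 8 fell and none rose, with a median of -0.41, but none had groups that were wholly apart. Lipf, a lipase of serous glands, read 12.28, 11.70, 11.62, 8.79 and 11.87 in controls and 8.91, 4.32, 10.05, 7.13 and 4.29 at 4 weeks. The range among injured rats was broad and control replicate 4 lay within it (-4.31, adjusted p = 0.0112). Bpifa2f, a salivary-type secretory protein, read 11.04, 10.83, 5.12, 4.70 and 6.66 in controls and 6.67, 3.13, 2.93, 2.77 and 3.03 at 4 weeks (-3.97, adjusted p = 0.00918), so that the controls themselves split widely. Dmbt1 (-2.32) and Scgb1a1, the club cell secretoglobin (-1.73), were of this group. The amount of gland in each dissected fold was not measured here.

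Some junction and transport genes fell too. Cldn3, a tight junction claudin, read 9.60, 9.41, 8.44, 8.96 and 8.52 in controls and 8.24, 7.39, 8.06, 7.39 and 7.44 at 4 weeks (-1.28, adjusted p = 0.0014). Ano1, a calcium-activated chloride channel, read 8.45, 8.24, 6.49, 7.31 and 6.42 in controls and 6.07, 5.27, 6.15, 5.72 and 5.60 at 4 weeks (-1.62, adjusted p = 0.00277). All injured rats were below all controls for both genes. Of 24 tight junction and adhesion genes 4 fell and none rose, including E-cadherin, Cdh1 (-0.78), and of 32 ion and water transport genes 7 fell and 1, the endothelial water channel Aqp1 (+0.86), rose. Xenobiotic metabolism had 4 of 28 lower, such as Cyp4b1 (-1.78) and Gstm1 (-1.06). The median span was 26.5 kb for transport, 15.6 kb for junctions, 14.1 kb for xenobiotic metabolism and 10.1 kb for secretory products. Of 29 keratin and cornified envelope genes 2 rose and none fell, of 17 motile cilia genes 1 fell, and of 23 sarcomere genes 1 fell, near the shares over all probe sets. Without control replicate 3 the lower counts were 10 of 28 for secretory products, 6 of 24 for junctions and 8 of 28 for xenobiotic metabolism. Over all 15049 probe sets the lower count rose as well, from 821 to 1697.

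Of 15 clock genes 3 fell and none rose, with a median of -0.26 and a median span of 26.3 kb. Nr1d1, the circadian repressor REV-ERB alpha, read 8.35, 8.87, 7.86, 9.22 and 9.17 in controls and 5.04, 4.85, 4.84, 8.23 and 7.68 at 4 weeks (-2.56, adjusted p = 0.00997). Injured replicates 1, 2 and 3 were far below all controls and replicates 4 and 5 near them. Dbp, a clock output gene, showed the same division, with 6.73, 6.59, 6.74, 8.96 and 8.42 at 4 weeks against 7.61 to 9.70 in controls, and did not pass (-1.27, adjusted p = 0.0564). Angptl4, a lipase inhibitor induced by fasting and glucocorticoids, read 6.61, 7.09, 6.03, 4.89 and 4.75 at 4 weeks against 4.07 to 4.93 in controls (+1.50, adjusted p = 0.00437), with injured replicates 4 and 5 inside the control range. Pdk4, a fasting-induced kinase, read 8.23, 7.97, 8.68, 6.30 and 6.01 at 4 weeks and 4.30 to 9.12 in controls, of which replicate 5 was the highest (+1.48, adjusted p = 0.137). Without control replicate 5 the Pdk4 difference was 2.26 (limma, adjusted p = 0.00427), and it was -1.52 with the hybridization covariate and -1.42 with the background covariate, without passing. The hour at which each rat was killed is not given in the sources used here. Clock itself fell without such a division, from 8.25 to 8.92 in controls to 7.61 to 8.04 at 4 weeks (-0.85, adjusted p = 0.00127), and Per3 fell by 1.10.

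Pituitary hormone transcripts were measured in the same arrays. Prl, prolactin, read 12.38, 12.10, 10.79, 10.76 and 11.16 in controls and 2.97 to 3.68 at 4 weeks, and Gh1, growth hormone, read 9.57, 7.51, 6.54, 5.74 and 6.04 in controls and 3.83 to 4.48 at 4 weeks. Of 20 pituitary hormone and factor genes 7 fell (35%, against 5.46% of all probe sets) and none rose. The hormone gene Cga fell (-1.45), while Pomc (-0.49), Fshb (-0.47), Lhb (-0.08) and Tshb (-0.01) did not pass. Of 12 thyroid and parathyroid genes 1 rose and 1 fell, with a median of 0.02. Each is 8.33% of the list, against 7.52% higher and 5.46% lower over all probe sets. The gene that rose was Tg, thyroglobulin, a thyroid product. It read 3.80 to 4.59 in controls and 6.12, 6.45, 4.74, 4.68 and 4.76 at 4 weeks (+1.18, adjusted p = 0.0291), highest in injured replicates 1 and 2. Tg did not pass in 8 of 25 alternatives, among them leaving out injured replicate 1 or injured replicate 2.

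Genes of ribosomal proteins rose in a block. Of 36 measured, 24 rose, all without overlap, and none fell, with a median of 0.55. Rps18 read 8.58, 8.34, 8.11, 8.49 and 8.59 in controls and 9.63, 9.36, 9.27, 9.24 and 9.44 at 4 weeks (+0.97, adjusted p = 0.000114). The counts were 23 with quantile normalization and 20 without both injured replicate 2 and control replicate 3, but 0 with either control signal as a covariate. The list's median stayed at 0.47 with the hybridization covariate, against -0.11 over all probe sets, and at 0.57 with the background covariate, against 0 over all. These genes have a median span of 3.4 kb, and 35 of the 36 fall in the 2 shortest classes. The part of gene length in this rise was not tested. Hbb, the beta globin of red blood cells, rose as well, from 5.89 to 7.61 in controls to 7.85 to 9.30 at 4 weeks (+1.81, adjusted p = 0.00236).

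**Figure D5:**
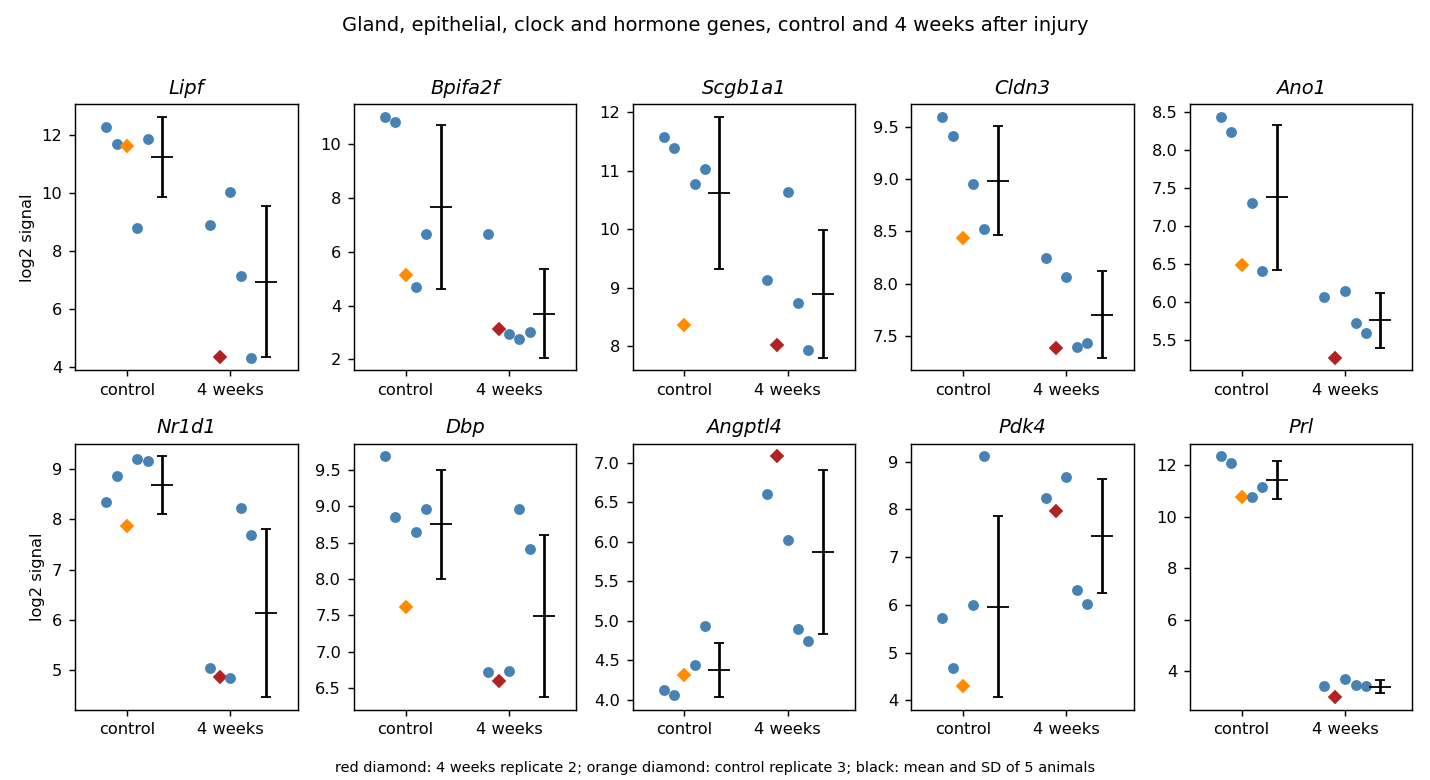
Log2 signal of 10 genes in each control and each 4-week rat (points), with the mean and SD of 5 rats. Nr1d1 and Dbp are low, and Angptl4 and Pdk4 high, in injured replicates 1 to 3, while Prl is low in all 5 injured rats (2.97 to 3.68).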

How the data were processed

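Total RNA of 20 rat vocal fold samples was hybridized to an Affymetrix array, named Clariom S in the methods and Clariom D in the labels. The authors deposited log2 values, normalized by robust multi-array averaging per the methods and made with Affymetrix Expression Console per the labels. No intensities were used here. Group means of 15049 named probe sets were compared with limma (version 3.58.1 in R 4.3.3), with all 20 arrays and 4 groups in 1 fit, no filter on low values and Benjamini-Hochberg adjustment over all 15049 probe sets. Differences are on the log2 scale. The script was tested on simulated data. Array-level measures were compared with exact permutation tests over 252 assignments. The arrays carry no counts, so their number, 5 a group, limits the precision, and p-values measure the spread between rats.

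The gene lists (49) and the genes to be described were chosen with earlier results of these data known. The named genes were RT1-Ba, Psmb9, C1qa and Cd163, from each list the 6 genes with the lowest adjusted p, the 15 largest rises and 15 largest falls without overlap, every gene past the threshold between 4 weeks and 1 week, and pituitary hormones. Outside this rule, C6, Cd3e, Cd74, Cfp, Ciita, Fcgr1a, Mmp7, Myh1, Ptprc, RT1-DOa, RT1-Db1, S100a8 and Scgb1a1 were named after their values were seen. A gene with several probe sets (10 genes) was represented by the brightest. Gene spans and upstream sequences came from RefSeq (GRCr8), matched by gene ID. Motif searches and figures used Python 3.11.15, pandas 2.3.3 and matplotlib 3.10.9.

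Alternatives were quantile normalization, median centring, array weights, a trended robust fit, a fit of the compared groups alone, a filter on dim probe sets, replicate numbers as blocks, gene means, a log2 change of at least 1, the unmoderated one-way analysis of the methods, all probe sets, the hybridization control signal as a covariate, and leaving out arrays. A background-signal covariate and a filter on probe sets below background were added after seeing the data.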

Additional observations from a re-analysis of the deposited data

Results flagged for a closer look

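In 34 of 180 groups examined (array measures, list means and the genes shown rat by rat), 1 array stood apart from the other 4 of its group, where chance flags about 1 in 20 groups. The groups share arrays and genes. The lists were chosen with earlier results known, and genes such as S100a8 and Scgb1a1 after their values were seen. The count is therefore not a test against that rate.

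Injured replicate 2 stood apart as the highest in the list means, relative to the control mean, of the immunoproteasome (1.68), the interferon-gamma response (1.96), macrophage markers (1.35), phagocyte signalling (1.61), monocytes and neutrophils (2.03), T and natural killer cells (1.73), chemokines (1.23), mucosal defence (1.48) and glucocorticoid-responsive genes (0.37), and as the lowest for Schwann cell genes (-0.22). It was also the highest for RT1-Ba (8.78), RT1-Bb (7.36), Psmb9 (8.61), Psmb10 (8.13), RT1-CE10 (8.17), Cd163 (9.15), Il1b (8.10) and S100a8 (7.87).

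Control replicate 3 stood apart as the lowest in median signal (4.85), in the list means of the constitutive proteasome (-0.61), lysosome (-0.53), collagen folding (-0.41), myofibroblasts (-0.37), heat shock and chaperones (-0.62) and ribosomal proteins (-0.40), and for Col5a1 (6.52), Serpinh1 (7.76) and Scgb1a1 (8.37). Injured replicate 1 had the highest median signal of its group (5.27) and the highest Bpifa2f (6.67). Control replicate 1 was highest for interferon-stimulated genes (0.23), control replicate 5 for Psmb9 (6.32), and control replicate 4 lowest for Lipf (8.79). Injured replicate 4 was lowest for Postn (6.99).

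The 4-week and 1-week groups differed for 19 probe sets by limma. Outside the main measurement, the hybridization controls were higher at 4 weeks by 0.85 and the background probe sets by 0.60, with no overlap between the groups. Of 8139 probe sets without a single gene name, 1200 differed between 4 weeks and control when all were tested.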

How the results depend on the processing

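Leaving out 1 array gave between 1267 (without control replicate 2) and 2599 (without control replicate 3) probe sets between 4 weeks and control, and 1283 without injured replicate 2, against 1952 in full. The count was 3383 with array weights, 956 with only these groups in the fit, 292 with a log2 change of at least 1, 3223 with all probe sets, 10 with the hybridization covariate and 1 with the background covariate. Between 4 weeks and 1 week the 19 became 50 with quantile normalization, 54 with median centring, 56 with array weights and 7 in the unmoderated analysis, and 6 (without 1-week replicate 1) to 46 (without 1-week replicate 4) when 1 array was left out. Between 8 and 4 weeks it was 0 throughout. The replicate number as a block gave 1676, 18 and 0. Same-numbered rats did not deviate together (correlations -0.27 to 0.28), so the numbers pair nothing and the block stands as an alternative only. In 17 settings, without covariates, filters or a minimum change and with at most 1 array left out, 484 probe sets were higher and 338 lower each time.

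Some named genes that passed changed sign. With the hybridization covariate these were Adipoq (0.0537), Col11a1 (-0.0944), Col2a1 (-0.0367), Col9a1 (-0.0947) and Esam (-0.0045). With the background covariate they were Adipoq (0.37), Aqp3 (0.23), Col11a1 (-0.0848), Col2a1 (-0.47), Col9a1 (-0.0898), Esam (-0.045), Esrp1 (0.32), Fdft1 (0.23), Nefm (-0.035), Rfx2 (0.15), RT1-CE10 (-0.10), RT1-DOb (-0.17) and Tap1 (-0.39). The cause was not tested. Of the other single-gene values, 6781 stayed on their side of the threshold, 1110 lost it and 212 gained it. Among the 6781, 54 values of 35 genes that passed in neither analysis changed sign, 45 of them with a covariate. Dim probe sets limit what could be seen, since 2.56% of the dimmest of 5 classes and 10.5% of the brightest were higher.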

Other observations

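Of 31 genes of transforming growth factor beta and bone morphogenetic protein signalling, 5 fell and 1 rose by limma, with a median difference of -0.02. Bmp6, a secreted ligand, read 6.63, 6.40, 5.97, 6.60 and 6.23 in controls and 5.68, 4.01, 5.55, 5.74 and 5.70 at 4 weeks, with all injured rats below all controls (-1.03, adjusted p = 0.00994). Bmp4, another ligand (-0.84), the receptors Bmpr1a (-0.74) and Bmpr2 (-0.58) and Tgfb2 (-0.69) fell with overlapping groups, and Id3, a target of the pathway, rose (+0.79). The median span of the list was 28.3 kb, and 11 of its members are in the longest of 5 span classes, in which 11.8% of genes were lower.

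Of 35 cell cycle genes 4 rose (11.4%, against 7.52% of all probe sets) and none fell, with a median of 0.23. Among the 4 were the mitotic cyclins Ccnb1 (+0.84) and Ccnb2 (+0.82), each of which did not pass in 13 of 25 alternatives. Injured replicate 2 was the highest injured rat for 29 of the 35, and without it 1 of them rose. Of 19 adipocyte genes Adipoq, adiponectin (-2.06), and the lipase Pnpla2 (-0.72) fell and the transcription factor Cebpa (+0.54) rose, against 5.46% lower and 7.52% higher over all probe sets. Adipoq read 3.45, 6.74, 4.26, 6.56 and 2.32 in controls and 1.78 to 3.41 at 4 weeks, with control replicate 5 inside the range of the injured rats.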
